A study of Mus musculus with 4 samples.

Results

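Reads from transposon insertion mapping were examined for 8 mouse genes that encode signalling adapter proteins, most of them known from blood cells: Clnk, Blnk, Dok4, Dok5, Dok6, Pstpip1, Pstpip2 and Card6. The genes were looked up by symbol in both deposited read tables, and a gene absent from a table was taken to have no reads. They were chosen by their nonredundant and redundant reads, because Clnk, Dok6, Card6 and Pstpip2 stand among the genes with most reads in library 1, so their read counts and the difference between the libraries are given as a description, without a test. Of the 8 genes, 7 had reads, out of 5614 genes with reads in the whole series.

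The cells were mouse haploid neural stem cell-like cells of 129Sv background, which were differentiated from haploid embryonic stem cells through embryoid bodies. Their medium held FGF2, EGF, LDN193189, SB431542 and a ROCK inhibitor, for which the labels name Y-27632, Thiazovivin or both without saying which applied here. A piggyBac gene trap plasmid was transfected together with a codon-optimised transposase, cells with trapped genes were selected with G418, and the junctions of transposon and genomic DNA were recovered by nested PCR after ligation of splinkerette adapters. The 4 samples form library 1 (2 samples) and library 2 (2 samples), which share all of these treatments. Neither library is a control of the other, no unmutated pool is among the samples, and what the last digit of a sample title means is not given.

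Each table pools the 2 samples of its library, so no value has a replicate spread, and every interval below covers counting error alone. Library 1 held 55442 nonredundant and 877870 redundant reads in 4184 genes, and library 2 held 48750 nonredundant and 1300140 redundant reads in 3168 genes. Reads are PCR products without molecular identifiers, so their number gives neither the number of insertions in a gene nor the number of cells that carry them. The reads come from DNA, and the labelled cell type and the expression of the adapters could therefore not be checked. The tables give no position or strand, so where in a gene its reads lie is not analysed here.

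Adapter proteins have no enzymatic activity. They carry domains that hold kinases, their substrates and effectors together beneath an activated receptor, and in lymphocytes, mast cells and macrophages they pass signals from antigen, Fc and cytokine receptors to calcium release, actin assembly and NF-kappa B. The genes examined here belong to 4 groups: linkers of the SLP-76 family (Clnk, Blnk), docking proteins of the DOK family (Dok4, Dok5, Dok6), membrane-bending F-BAR proteins (Pstpip1, Pstpip2) and a protein with a caspase recruitment domain, or CARD (Card6). Of these, the Dok4, Dok5 and Dok6 proteins are known from neurons, where they join receptor tyrosine kinases.

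In library 1, 6 of the 8 adapter genes had at least 1 nonredundant read, against 15.9% of the 26219 genes with curated transcripts. In library 2, 4 of the 8 were listed, against 12.1% of all genes. At 10 or more reads there were 5 adapter genes in library 1 and 0 in library 2, beside 1.9% and 1.12% of all genes. At 100 or more reads, 4 were in library 1 (0.481% of all genes) and 0 in library 2 (0.297%). Because the genes were picked for their reads in library 1, nothing about adapters as a class can be read from these counts.

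The 8 genes together held 2563 nonredundant reads in library 1 and 8 in library 2. The group share was thus 4.62% (95% interval 4.45 to 4.80) for library 1, against 0.0164% (0.00709 to 0.0323) for library 2, a ratio of 282 (143 to 653). Clnk, Dok6, Card6 and Pstpip2 supplied 97.9% of the reads of the group in library 1. The reads of the group in library 1 were thus those of 4 genes, each from another protein family. Of the redundant reads, the group held 9.44% in library 1 and 0.0010% in library 2.

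**Figure D1:**
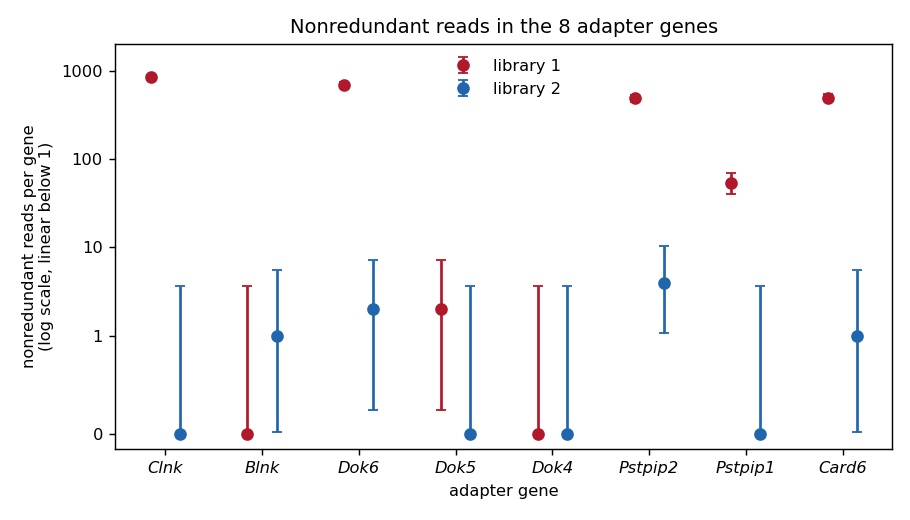
Nonredundant reads per gene (vertical axis, log scale, linear below 1) for the 8 adapter genes in library 1 (red, left) and library 2 (blue, right); bars are exact Poisson 95% intervals of each count, and no replicates exist. Clnk, Dok6, Pstpip2 and Card6 lie between 486 and 837 reads in library 1, and no adapter gene exceeds 4 reads in library 2.

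Clnk, also called MIST, encodes a linker of mast cells and natural killer cells with a phosphotyrosine-binding SH2 domain. It lies on chromosome 5. Clnk had 837 nonredundant reads in library 1 and 0 in library 2. It made up 1.51% of library 1 (95% interval 1.41 to 1.61). The 95% interval of the 0 reads of library 2 reaches a share of 0.00757%, and 3 reads set in place of 0 make 0.00615%. With 3 reads in place of 0, the share was 245-fold higher in library 1, a value that leaves out the counting error of both counts. Clnk held rank 5 among all genes of library 1 by nonredundant reads, below D6Wsu163e with 949 reads and above Dok6.

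Blnk, on chromosome 19, encodes the B cell linker SLP-65, which the kinase Syk phosphorylates and which brings Btk to phospholipase C gamma. It was the only adapter gene with reads in library 2 and none in library 1. Blnk had 0 nonredundant reads in library 1 and 1 in library 2, and its redundant reads were 0 and 2. Neither count exceeds the 3 reads that are set in place of a count of 0, so no ratio is given. The third gene of this family, Lcp2, which encodes the T cell linker SLP-76, had 0 reads in library 1 and 0 in library 2.

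Dok6 encodes a docking protein that binds the receptor RET in neurons, through a phosphotyrosine-binding domain beside a membrane-binding PH domain. It lies on chromosome 18. Dok6 had 693 nonredundant reads in library 1 and 2 in library 2, or 1.25% (95% interval 1.16 to 1.35) and 0.00410% (0.000497 to 0.0148). The ratio of the shares was 305, with a counting interval of 84.0 to 2521 that is wide because it rests on the 2 reads of library 2. Dok6 held rank 6 of library 1, just above Iffo2 with 679 reads, and rank 757 of library 2.

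The closest relatives of Dok6 had few or no reads. Dok5, on chromosome 2, encodes another neuronal docking protein and had 2 nonredundant reads in library 1 and 0 in library 2. Dok4, on chromosome 8, had 0 in library 1 and 0 in library 2, and was the sole adapter gene of the 8 without any read. The counting interval of 0 reads reaches a share of 0.00665% in library 1 and 0.00757% in library 2. The remaining genes of the family, Dok1, Dok2 and Dok3, known as inhibitors of signalling in blood cells, and Dok7, an activator of the receptor kinase of the neuromuscular junction, also had 0 reads in library 1 and 0 in library 2. Of the 7 genes of the DOK family, 2 had a read in library 1 (28.6%) and 1 in library 2 (14.3%), beside 15.9% and 12.1% of all genes. The median length class of the 7 was 5 of the 10 described below, in which 6.45% and 4.42% of genes had a read. Dok5 and Dok6, the genes of the family with reads, fell into class 10, in which 65.2% and 52.2% of genes had a read.

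Pstpip2 encodes an F-BAR protein of macrophages, and mice that lack it develop inflammation of bone. It lies on chromosome 18. Pstpip2 had 486 nonredundant reads in library 1 and 4 in library 2, the highest count of any adapter gene there. Its share was 0.877% of library 1 (95% interval 0.801 to 0.958), against 0.00821% of library 2 (0.00224 to 0.0210), a ratio of 107 (41.5 to 394). It held rank 16 of library 1, just above the cell cycle gene Dbf4 with 471 reads, and rank 479 of library 2.

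Pstpip1, on chromosome 9, encodes the related F-BAR protein of T cells and neutrophils that binds the phosphatase PTP-PEST and the Wiskott-Aldrich syndrome protein. Pstpip1 had 53 nonredundant reads in library 1 and 0 in library 2. Its share of library 1 was 0.0956% (95% interval 0.0716 to 0.125). With the same replacement of 0 reads as for Clnk, the share was 15.5-fold higher than in library 2. That value leaves out the counting error of both counts. The rank of Pstpip1 in library 1 was 225, with Pkd1l3 and Ubash3b at the same count. The PSTPIP pair was thus the sole family of the 4 in which a second gene reached 10 reads in library 1.

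Card6, on chromosome 15, encodes a CARD protein that binds microtubules and the kinase RIPK2 and acts on NF-kappa B signalling. Card6 had 492 nonredundant reads in library 1 and 1 in library 2, or 0.887% (95% interval 0.811 to 0.969) and 0.00205% (5.19e-05 to 0.0114). The ratio was 433 with a counting interval of 77.3 to 17122, since library 2 held a single read. At rank 15 of library 1 it stood between Proc (507 reads) and Pstpip2 (486).

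**Figure D2:**
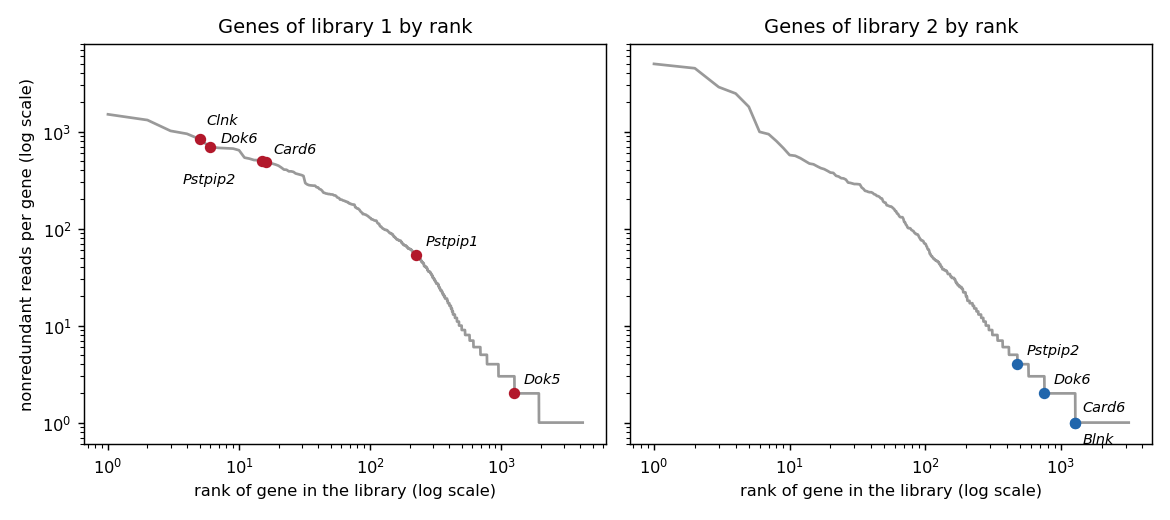
Nonredundant reads per gene against the rank of the gene, both on log scales, for all genes of library 1 (left) and of library 2 (right), with the adapter genes as points; in library 2 the points of Card6 and Blnk coincide. The 4 leading adapter genes take ranks 5, 6, 15 and 16 in library 1, and in library 2 no adapter gene stands above rank 479.

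By a rule that the share of a gene be at least 10-fold above that in the other library, with 3 reads in place of 0, Clnk, Dok6, Card6, Pstpip2 and Pstpip1 were higher in library 1, beside 5.45% of the 5614 genes listed in either library. None of the 8 was higher in library 2 by that rule, beside 3.31% of genes. These shares are printed for scale, since the rule of choice used library 1. For Pstpip1 the call rests on 3 reads in place of 0 and leaves out counting error. The lower end of its library 1 share, 0.0716%, is less than 10-fold the 0.00757% that the interval of 0 reads reaches in library 2. With redundant reads the ratio was larger for the 3 genes with reads in both libraries, at 9268.5 for Dok6, 3997 for Pstpip2 and 8673 for Card6.

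Some leading genes of library 1 also had reads in library 2. Of the 126 genes with 100 or more reads in library 1, 73 were also listed in library 2, which is 57.9%. Library 2 listed 12.1% of all genes with curated transcripts, and 52.2% of those in the longest of the 10 length classes described below. In library 2, 294 of all 3167 matched genes reached 10 reads. Of the 73 genes, 55 had at most 4 reads there. The share of all library 2 genes with at most 4 reads is not given here, so the 55 have no background at that limit. Dok6 (2 reads), Pstpip2 (4) and Card6 (1) were among these 55, and Clnk was not. Of the 7 adapter genes with reads, 3 were in both libraries, beside 31% of the 5614 genes listed in either library. Whether these reads come from insertions of library 2 was not tested.

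No gene had fewer redundant than nonredundant reads. How the submitters separated the 2 counts is not given, so their ratio is printed as a description. In library 1, Clnk had 31843 redundant reads, or 38.0 per nonredundant read, and Dok6 had 31291, or 45.2. Pstpip2 had 13494, or 27.8 per nonredundant read, Card6 5856, or 11.9, and Pstpip1 413, or 7.79. The order of the genes therefore depends on the count: Card6 held rank 15 by nonredundant and rank 36 by redundant reads, whereas Clnk moved to rank 4, Dok6 to rank 5 and Pstpip2 to rank 14.

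These ratios were set against the genes of library 1 whose nonredundant reads lay within 2-fold of those of the adapter gene. For Clnk the 20 such genes had a median of 31.4 redundant reads per nonredundant read (quartiles 22.5 and 42.4), and 7 of them were at or above Clnk. For Dok6 the median of 29 genes was 28.5 (quartiles 23.2 and 37.6), and 4 were at or above it. Card6 lay on the other side: 33 of its 39 genes had a ratio as high or higher (median 26.9, quartiles 18.2 and 33.1). Pstpip2 was near the middle, with 18 of 39 genes at or above it (median 25.2), and Pstpip1 had 55 of 211 at or above it (median 3.36). In library 2 there were 5 redundant reads for Dok6, 5 for Pstpip2, 1 for Card6 and 2 for Blnk.

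**Figure D3:**
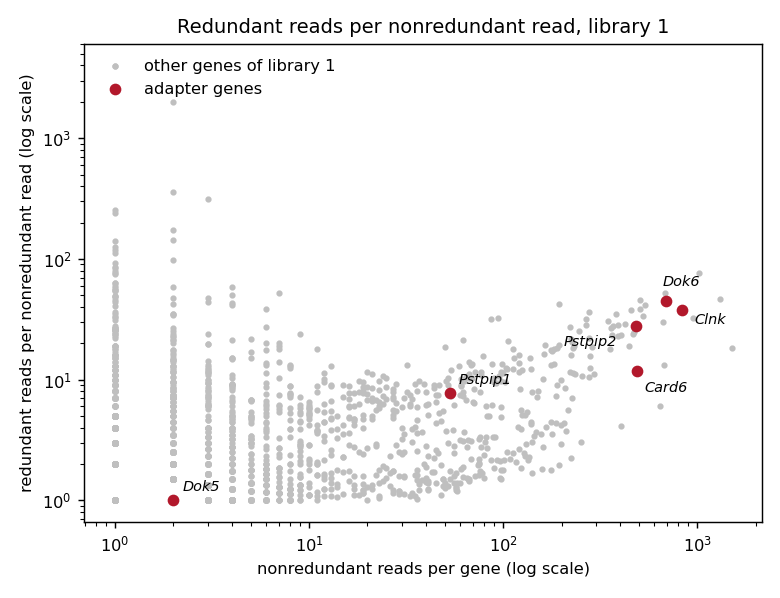
Redundant reads per nonredundant read (vertical, log scale) against nonredundant reads (horizontal, log scale) for all genes of library 1, with the adapter genes in red. Clnk (38.0) and Dok6 (45.2) lie above the median of genes with similar reads (31.4 and 28.5), and Card6 (11.9) lies below its own (26.9).

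Long genes offer more room for insertions, and the genes with curated transcripts were therefore ordered by their length in assembly GRCm38.p6 and divided into 10 equally large classes. Clnk, Dok5 and Dok6 fell into class 10, the longest, in which the share of genes with 10 or more reads was 11.3% for library 1 (95% interval 10.1 to 12.6), against 6.26% for library 2 (5.36 to 7.25). Clnk held rank 4 and Dok6 rank 5 of the 2621 genes of this class in library 1, while Dok5 was at rank 829.

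Pstpip1, Pstpip2 and Blnk fell into class 9, where this share was 3.36% for library 1 (95% interval 2.70 to 4.12), against 2.67% for library 2 (2.09 to 3.36). In library 1, Pstpip2 held rank 3 and Pstpip1 rank 34 of the 2622 genes of this class. Card6 is much shorter and fell into class 6, where it was 0.610% for library 1 (95% interval 0.349 to 0.989), against 0.610% for library 2. Among protein coding genes only, the class of Card6 had 0.951% in library 1 and 0.428% in library 2. It held rank 3 of the 2622 genes of its class in library 1. Just 16 genes of that class reached 10 reads in library 1, and 5 reached 100. Dok4 fell into class 5, where 6.45% of genes had any read in library 1 and 4.42% in library 2.

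**Figure D4:**
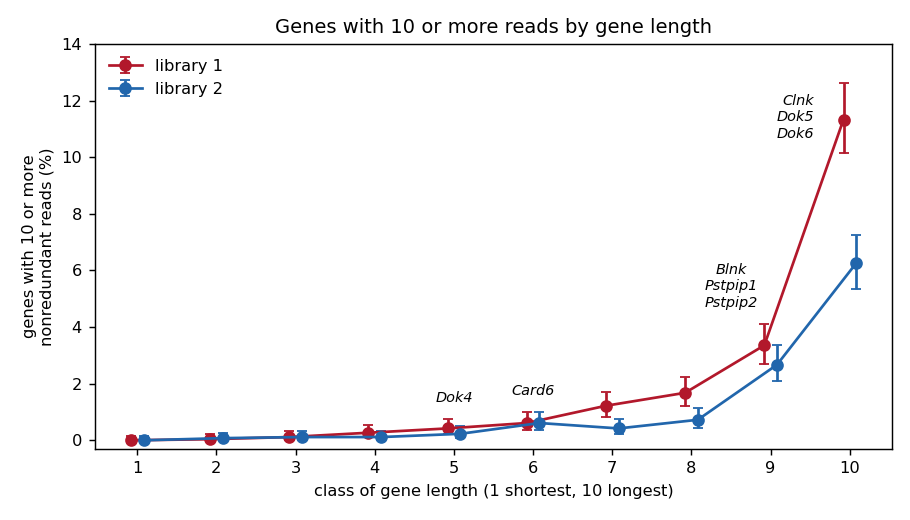
Percentage of genes with 10 or more nonredundant reads (vertical) in 10 classes of gene length (horizontal, 1 shortest, 10 longest) in library 1 (red) and library 2 (blue); bars are exact 95% binomial intervals, and adapter genes are written at their class. The share reaches 11.3% in library 1 and 6.26% in library 2 in class 10, and over all curated genes it is 0.610% in both libraries in class 6, which holds Card6.

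Reads were also looked up in the neighbours of the adapter genes along the chromosome. For each of the 5 adapter genes with 10 or more reads in library 1, the pair of genes on either side was taken by order of start in GRCm38.p6. Of these 20 neighbours, 3 were listed in library 1 and 2 in library 2, beside 15.9% and 12.1% of all genes. Those with reads were Epg5, an autophagy gene beside Pstpip2 (7 reads in library 1 and 2 in library 2), the lectin gene Siglec15 near Pstpip2 (1 and 0), and Peak1, which encodes a pseudokinase, near Pstpip1 (3 and 2). Wdr1, Zfp518b and Hs3st1 around Clnk, Cd226 and Tmx3 around Dok6, and C7 and Rpl37 around Card6 had no reads in library 1 and none in library 2.

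Genes with the most similar counts were found by the distance over log10(count + 1) of 4 values per gene, the nonredundant and redundant reads of both libraries. The genes nearest to Clnk were Iffo2 (679 nonredundant reads in library 1 and 0 in library 2, distance 0.101), Ralgapa1 (1506 and 0, distance 0.262) and Proc (507 and 0, distance 0.302). Dok6 was nearest to D6Wsu163e (949 and 2), Pawr (539 and 2) and Epha4 (668 and 2), at distances of 0.330 to 0.415. Pstpip2 was nearest to Auts2 (445 and 6), then to Pawr and Dok6. Card6 was nearest to Pou2f1 (365 and 1), Zfp804b (286 and 1) and Macrod1 (277 and 1), the first at a distance of 0.206. Pstpip1 had the closest matches, Arhgef38 (54 and 0), Ankrd29 (47 and 0) and Corin (52 and 0), at 0.0209 to 0.0539.

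To place the adapters in their pathways, 8 lists were counted that hold their families, other immune receptor adapters, the kinases and phosphatases that act on them, their effectors, and the neural receptors that DOK proteins join. The lists held 123 genes, of which 115 are not among the 8 adapter genes. Of these 115, 37 had a read in library 1 and 32 in library 2, which is 32.2% and 27.8%, beside 15.9% and 12.1% of all genes. The median length class of the 115 was 8, and the median reads were 0 in both libraries, as over all genes. At 10 or more reads there were 0 of the 115 in library 1 and 3 in library 2 (2.61%, beside 1.12%). The 3 genes of library 2 were Ntrk3, Gfra1 and Gab2.

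Among 37 other immune receptor adapters, 14 were listed in library 1 and 10 in library 2 (37.8% and 27.0%), beside 15.9% and 12.1% of all genes. The median length class of this list was 8, in which 21.1% and 16.8% of genes were listed. Gab2, a docking protein of growth factor and Fc receptors, had 7 reads in library 1 and 32 in library 2. Skap1, a T cell adapter that acts on integrins, had 6 and 0, and Themis, required for T cell development, had 3 and 2. No gene of this list reached 10 reads in library 1.

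Among 17 kinases and phosphatases, 3 were listed in library 1 and 3 in library 2 (17.6% in each), beside 15.9% and 12.1% of all genes. The median length class of this list was 9, in which 35.6% and 24.98% of genes were listed. Csk, the inhibitor of Src family kinases, had 0 reads in library 1 and 7 in library 2, and the Src family kinase gene Fyn had 4 and 0. Ptpn6, which encodes the phosphatase SHP-1 of blood cells, had 1 and 1. Effectors of the adapters also had a median length class of 9. Of these 10 genes, 4 were listed in library 1 and 6 in library 2, beside 15.9% and 12.1% of all genes. All counts were low. The highest were Vav3, an exchange factor for small GTPases, with 5 and 1 reads, and Plcg2, the phospholipase of B cells, with 3 and 1, while Plcg1 had 1 and 1.

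Of the 10 neural receptor genes, 7 were listed in library 1 and 3 in library 2, beside 15.9% and 12.1% of all genes. The median length class of this list was 9.5. In class 9, 35.6% of genes were listed in library 1 and 24.98% in library 2. In class 10 these shares were 65.2% and 52.2%. The neurotrophin receptor genes Ntrk3 and Ntrk2 had 2 and 1 reads in library 1, and 78 and 5 in library 2. Gfra1, the co-receptor of RET for the growth factor GDNF, had 2 in library 1 and 52 in library 2. The redundant reads of Gfra1 were 350 in library 1 and 389 in library 2, and library 1 has the smaller redundant total. The other listed genes, Gfra2, Gfra3, Insr and Tek, had 1 nonredundant read each in library 1 and 0 in library 2.

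The F-BAR and CARD family lists were counted without their adapter genes. Among 18 other F-BAR genes, 6 were listed in library 1 and 6 in library 2, with 12 and 15 reads in all. Of all genes, 15.9% and 12.1% were listed. The whole F-BAR list had a median length class of 9, in which 35.6% and 24.98% of genes were listed. Srgap2, a regulator of dendritic spines and of Rac, had 2 reads in library 1 and 7 in library 2, and the tyrosine kinase gene Fer had 3 and 2. The whole CARD list had a median length class of 7, in which 15.3% and 11.9% of genes were listed. Among 18 other CARD proteins and partners, 3 were listed in library 1 and 4 in library 2, with 3 and 7 reads in all. The highest were Malt1, the protease that acts with Bcl10, with 0 and 3 reads, and the bacterial sensor gene Nod1 with 0 and 2. Apart from the adapter genes themselves, no gene of these families had over 3 reads in library 1. Over all genes, 1.9% reached 10 reads in library 1.

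**Figure D5:**
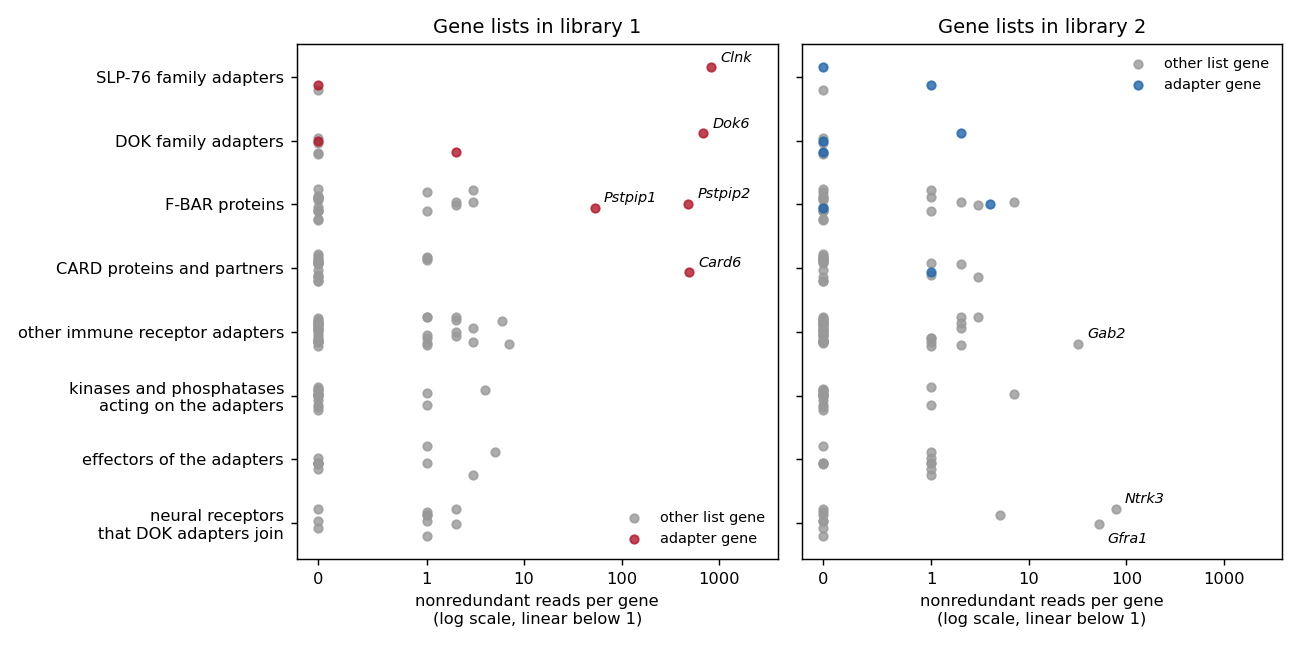
Nonredundant reads per gene (horizontal, log scale, linear below 1) for the genes of 8 lists (rows) in library 1 (left) and library 2 (right); grey points are other list genes and coloured points the 8 adapter genes, moved up or down at random within a row. Genes with 10 or more reads are named: 5 adapter genes in library 1, and Gab2, Ntrk3 and Gfra1 in library 2.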

How the data were processed

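Genomic DNA of 4 samples was measured, 2 per library, and samples were grouped by the table that each label names. Each deposited table gives, per the file headers, a gene, its transcripts and raw counts of nonredundant and redundant reads. Of tools and builds, CASAVA, BWA and mm9 appear in the submitters' processing notes, without versions. How reads were assigned to genes and how nonredundant was defined is not given in the sources used here.

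Shares, ranks, ratios and exact intervals (Poisson, Clopper-Pearson, conditional binomial for ratios, 95%) were computed in Python 3.11.15 with scipy 1.17.1. For a ratio, 3 reads were set in place of a count of 0, which is less than the upper end of its 95% interval. The ratio was tested on simulated data. Transcripts, then symbols or synonyms, were matched to RefSeq genes of GRCm38.p6 (4181 of 4184 genes of library 1 and 3167 of 3168 of library 2), used for names, chromosome, gene order and length class. These lengths and orders are not those of mm9.

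Named genes are the 8 adapter genes, list genes with 10 or more reads in a library or otherwise up to 3 by summed reads, the 3 nearest genes by counts, and genes next in rank. Neighbours along the chromosome and the families' remaining genes were added later. Members and lists were chosen with earlier results of these data known, so no test was made. An item that the lists would hold is not reported here and was left out of their counts. Alternatives were other read minima, redundant reads, other totals and protein coding genes only.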

Additional observations from a re-analysis of the deposited data

How the results depend on the processing

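Clnk, Dok6, Card6, Pstpip2 and Pstpip1 stayed higher in library 1 with redundant and with unscaled reads; Blnk, Dok4 and Dok5 had too few reads for a ratio, and the single read of Blnk is lost at a minimum of 2 reads. With a minimum of 2 reads, 6 adapter genes were listed in library 1 and 2 in library 2, and with a minimum of 10 reads 5 and 0. The wider lists then held 23 genes in library 1 and 17 in library 2 at 2 reads, and 5 and 3 at 10 reads, against 43 and 36 at 1 read. With redundant reads the adapter share was 9.44% of library 1 and 0.0010% of library 2. Without the other genes among the 10 with most reads in the total, it was 5.34% of library 1 and 0.0284% of library 2. By redundant reads the ranks in library 1 were 4 for Clnk, 5 for Dok6, 163 for Pstpip1 and 36 for Card6. The log2 ratio of library 1 over library 2 in redundant reads was 13.94 for Clnk and 7.67 for Pstpip1 (both with 3 reads in place of 0, which bounds nothing here because 1 nonredundant read can carry many redundant reads), 13.18 for Dok6 and 11.96 for Pstpip2, against 7.94, 3.96, 8.25 and 6.74 in nonredundant reads. Without scaling to library totals, and with 3 nonredundant reads in place of 0, the values were 8.12 for Clnk and 4.14 for Pstpip1. Among protein coding genes only, the share of genes of like length with 10 or more reads was 13.5% in library 1 and 7.47% in library 2 for Clnk and Dok6, 2.19% and 1.33% for Pstpip1, and 0.951% and 0.428% for Card6. The classes were cut anew among protein coding genes, so the sets compared differ, and Pstpip1 moved from class 9 to class 8. The cause of the other shifts was not tested. No paired analysis was possible because each table pools its 2 samples, and no replicate could be left out for the same reason. Each ratio rests on the 0 to 4 reads of its gene in library 2, which sets the width of its interval.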

Other observations

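Some genes of the wider lists had many redundant reads beside very few nonredundant reads. These were singled out after their values were seen. Gfra1, the RET co-receptor gene, had 2 nonredundant and 350 redundant reads in library 1, against 52 and 389 in library 2. The tyrosine kinase gene Fer had 3 nonredundant and 142 redundant reads in library 1, against 2 and 15 in library 2. Fnbp1l, an F-BAR gene of actin-driven membrane uptake, had 3 and 3 in library 1, against 1 nonredundant and 207 redundant reads in library 2.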
